A study of Mus musculus with 24 samples.

Results

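Genes that mark the epithelial and mesenchymal state of cells were followed in tumors grown from Panc02, a mouse pancreatic adenocarcinoma line: Krt8, Krt18, Krt7, Krt19, Epcam, Cdh1, Cdh2, Vim, Rhox5, and Sox9. They were taken by symbol and are 10 of the 32285 genes of the deposited count tables. They were read in barcodes without a UMI of Ptprc (CD45, the surface protein of blood-derived cells), where a UMI is 1 counted RNA molecule and a barcode stands for 1 droplet. Of 144994 barcodes, 120905 had at least 200 genes, at least 1000 UMIs, and under 10% mitochondrial UMIs, and 77446 of these had no Ptprc. Barcodes with both Krt8 and Krt18 (59574) formed the Krt8/Krt18 gate. Of the rest, those with Sox9 formed the Sox9 gate (3454), and those with at least 3 UMIs over 5 collagen and stromal genes, at least 2 of them seen, formed the fibroblast gate (672). Barcodes with the endothelial pair Pecam1 and Cdh5 or the basal keratinocyte pair Krt5 and Krt14 had been set aside first. No annotation of cells was used, so that barcodes are named by gate. Of the 10 genes, Krt8, Krt18, and Sox9 chose the barcodes, and their values between gates are a description.

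Male C57BL/6 mice, 6 to 7 weeks old when implanted, carried s.c. tumors of injected Panc02 cells and were given 1 of 8 treatments. These were isotype control antibody, anti-PD-1, anti-CTLA-4, or both antibodies, and PancVAX with each of those 4. PancVAX is a neoantigen peptide vaccine given on days 12 and 19, by the methods together with an adjuvant and a STING agonist, anti-PD-1 began on day 12, anti-CTLA-4 was given on days 15 and 22, and tumors were taken on day 38 by the labels (a legend of the paper gives other days for the harvest and for anti-CTLA-4). The dissociated tumors of a treatment were pooled and gave 1 whole-tumor library and 1 library of cells separated on Percoll (a density medium, used by the methods to enrich immune cells), 16 RNA libraries in all. A treatment is thus 1 pool, and an agent is compared over 4 pools against 4. The p-values measure the spread between pools, which for an agent also holds any joint effects of the agents. All tumors came from 1 line under the skin, and preparation was also the sequencing batch.

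Simple epithelia are held together by E-cadherin junctions and by keratin filaments, which form from a type I and a type II keratin in equal numbers. In an epithelial-mesenchymal transition, cells lower these genes and raise vimentin, N-cadherin, and matrix genes, and transcription factors of the Zeb, Snail, and Twist families repress epithelial genes through short E-box sequences. Pancreatic duct cells and carcinomas that arise from them are typically rich in keratins and E-cadherin, and many cell lines stand between the epithelial and the mesenchymal pattern.

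Library totals were 77132400 to 176233000 UMIs over 5743 to 11979 barcodes. The gates differed in depth, with a median of 19313.5 UMIs in the Krt8/Krt18 gate of the whole-tumor libraries, 6516.5 in the Sox9 gate, and 10339.5 in the fibroblast gate. In the Percoll library with PancVAX plus anti-PD-1 the median of the Krt8/Krt18 gate was 9747.5 UMIs, below all others, and 915 barcodes fell in the Sox9 gate against 88 to 292 in the other libraries. Of 132035 distinct barcode sequences, 12150 were seen in more than 1 library, among them 2130 of the 57404 sequences of the Krt8/Krt18 gate. Sums of UMIs per 1000000 of a gate (CPM) over 8 fibroblast markers were 282 to 698 in the Krt8/Krt18 gate, 1513 to 9731 in the Sox9 gate, and 18314 to 44193 in the fibroblast gate. The 5 T cell markers summed to 1.98 to 7.26 CPM and the 6 endothelial markers to 3.97 to 5.72 CPM in the Krt8/Krt18 gate. In the Sox9 gate, 7 macrophage markers summed to 127 to 764 CPM, 4 hemoglobin genes to 0.545 to 896 CPM, and 5 muscle genes to 5.75 to 476 CPM, so that this gate held signal of other cell types in some libraries.

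Krt8 (ENSMUSG00000049382, chr15:101996711-102004342 in GRCm38.p6) and Krt18 (ENSMUSG00000023043, chr15:102028216-102032026) encode the keratin pair of simple epithelia. In the Krt8/Krt18 gate of the 8 whole-tumor libraries Krt8 was at 671 CPM in the lowest library, 777 at the median, and 1026 in the highest. Krt18 was at 1013, 1183, and 1425 CPM. Both genes therefore stayed within a narrow range over the 8 treatments in the barcodes that they defined. In the Sox9 gate, where a barcode could hold only 1 of the pair, their medians were 55.2 and 234 CPM, and in the fibroblast gate 16.6 and 33.3 CPM. T cell barcodes (Ptprc and Cd3e) still had a median of 255 CPM of Krt8, and the source of these UMIs was not tested.

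Krt7 (ENSMUSG00000023039, chr15:101412403-101427806) and Krt19 (ENSMUSG00000020911, chr11:100140810-100145926), keratins of ducts and other simple epithelia, were uneven in the same gate. Krt7 was at 1.63, 29.5, and 49.3 CPM in the lowest, median, and highest library (mean 26.1 ± 17.7, SD, n = 8). Krt19 was at 3.97, 15.6, and 51.2 CPM (mean 20.8 ± 15.3, SD, n = 8). The library with anti-PD-1 alone was the lowest for both keratins and the library with anti-PD-1 plus anti-CTLA-4 the highest for both. Krt7 was seen in 10.7% and Krt19 in 9.63% of the 28066 barcodes, where an even spread of the same UMIs over barcodes by depth would place them in 37.0% and 33.5%. The 1% of barcodes with the most Krt7 held 48.8% of its UMIs, up to 430 in 1 barcode, and the 1% with the most Krt19 held 46.9%, up to 101. Thus both keratins were concentrated in few barcodes rather than low in all.

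Epcam (ENSMUSG00000045394, chr17:87635979-87651127), an adhesion molecule of the epithelial surface, was at 0.851, 3.93, and 7.78 CPM in the lowest, median, and highest library of the Krt8/Krt18 gate. Cdh1 (ENSMUSG00000000303, chr8:106603350-106670247), which encodes E-cadherin, was at 2.88, 4.29, and 6.56 CPM. Set to 2000 UMIs per barcode, Epcam was expected in 0.639% of the barcodes in the Krt8/Krt18 gate, 0.208% of the fibroblast gate, 0.344% of macrophage barcodes, 1.25% of T cell barcodes, and 22.3% of the 66 barcodes of the basal keratinocyte gate. Cdh1 was expected in 1.02%, 0.419%, 0.632%, 3.52%, and 23.8% in the same order. Barcodes below 2000 UMIs were left out, 376 in the Krt8/Krt18 gate and 713 of the 7012 T cell barcodes. For each of the 2 genes the Krt8/Krt18 gate lay below T cells in 8 of 8 libraries, above macrophages in 7 of 8, and above the fibroblast gate in 6 of 8, and how much of these low shares is free RNA was not tested. By the same measure Krt7 was expected in 3.24% of the Krt8/Krt18 gate and 0.355% of T cells and Krt19 in 2.89% and 0.274%, so that these 2 keratins stood above T cells as well.

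On the mesenchymal side, Vim (ENSMUSG00000026728, chr2:13574311-13582826), the intermediate filament of mesenchymal and blood cells, was at 2274, 2804, and 3410 CPM and was seen in 99.7% of the barcodes of the Krt8/Krt18 gate (85.8% held Sox9 and 92.0% Rhox5). At 2000 UMIs Vim was expected in 96.2% of these barcodes, 94.2% of the fibroblast gate, 78.9% of T cells, and 49.9% of macrophages. Cdh2 (ENSMUSG00000024304, on chromosome 18), which encodes N-cadherin, was at 0.552, 0.754, and 1.13 CPM and was seen in 1.79% of barcodes, where an even spread gives 1.82%. At 2000 UMIs Cdh2 was expected in 0.178% of these barcodes and in 1.66% of the fibroblast gate.

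Rhox5 (ENSMUSG00000095180, chrX:37754608-37808878) is a homeobox gene of the reproductive tract that many tumor lines express. In the Krt8/Krt18 gate it was at 562, 593, and 674 CPM (mean 604 ± 41.4, SD, n = 8), the narrowest spread relative to the mean among the 10 genes in these libraries. It was at 269.7 to 381 CPM in the Sox9 gate and at 32.0 to 242 CPM in the fibroblast gate. At 2000 UMIs it was expected in 61.5% of Krt8/Krt18 gate barcodes, 39.5% of the Sox9 gate, 15.1% of the fibroblast gate, and 8.89% of T cells. The other 12 genes of its family that were listed summed to at most 0.0967 CPM in the Krt8/Krt18 gate and were at 0 in the Sox9 and fibroblast gates. Sox9 (ENSMUSG00000000567, chr11:112782210-112787757), a transcription factor of duct, progenitor, and cartilage cells, was at 303, 368, and 598 CPM in the Krt8/Krt18 gate and was expected in 46.8% of its barcodes at 2000 UMIs against 6.03% of T cells.

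Promoter sequences from RefSeq (GRCm38.p6) were used for 6 of the 10 genes, and the 250 bases before the start were searched for CAGGTG, the E-box that Zeb and Snail factors are known to bind, and its reverse complement CACCTG. The 4 promoters with a match are shown, chosen for the match and not for how the genes moved. The windows were chr15:102004343-102004592 (minus strand) for Krt8, chr15:102027966-102028215 (plus strand) for Krt18, chr15:101412153-101412402 (plus strand) for Krt7, and chr17:87635729-87635978 (plus strand) for Epcam. Each is written in the direction of transcription, with the matches in capitals.
Krt8: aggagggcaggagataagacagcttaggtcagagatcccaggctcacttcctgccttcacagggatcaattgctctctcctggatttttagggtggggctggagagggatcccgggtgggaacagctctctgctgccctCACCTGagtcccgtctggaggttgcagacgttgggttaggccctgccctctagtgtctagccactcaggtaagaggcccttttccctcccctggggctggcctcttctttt
Krt18: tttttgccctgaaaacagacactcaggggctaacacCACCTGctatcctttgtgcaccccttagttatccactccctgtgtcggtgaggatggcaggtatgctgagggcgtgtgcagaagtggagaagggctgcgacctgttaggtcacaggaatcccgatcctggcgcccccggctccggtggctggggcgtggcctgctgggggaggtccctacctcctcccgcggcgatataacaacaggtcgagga
Krt7: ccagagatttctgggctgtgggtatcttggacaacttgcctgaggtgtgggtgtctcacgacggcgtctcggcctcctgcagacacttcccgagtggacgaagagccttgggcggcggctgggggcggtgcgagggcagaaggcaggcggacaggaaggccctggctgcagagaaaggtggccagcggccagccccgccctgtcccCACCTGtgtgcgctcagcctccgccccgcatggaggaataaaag
Epcam: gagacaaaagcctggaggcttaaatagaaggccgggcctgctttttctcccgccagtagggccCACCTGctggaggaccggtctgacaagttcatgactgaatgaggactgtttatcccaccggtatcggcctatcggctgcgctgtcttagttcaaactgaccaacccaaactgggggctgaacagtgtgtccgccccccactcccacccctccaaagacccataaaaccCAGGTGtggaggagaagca
The match began 111 bases before the start in Krt8, 214 in Krt18, and 44 in Krt7, and Epcam had matches at 187 and 19 bases. The windows of Vim and Rhox5 held neither sequence, and the promoters of Krt19, Cdh1, Cdh2, and Sox9 were not analysed here. Of 32851 promoter windows of the same length, 5657 (17.2%) held at least 1 match, and the letters alone do not show binding.

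**Figure D1:**
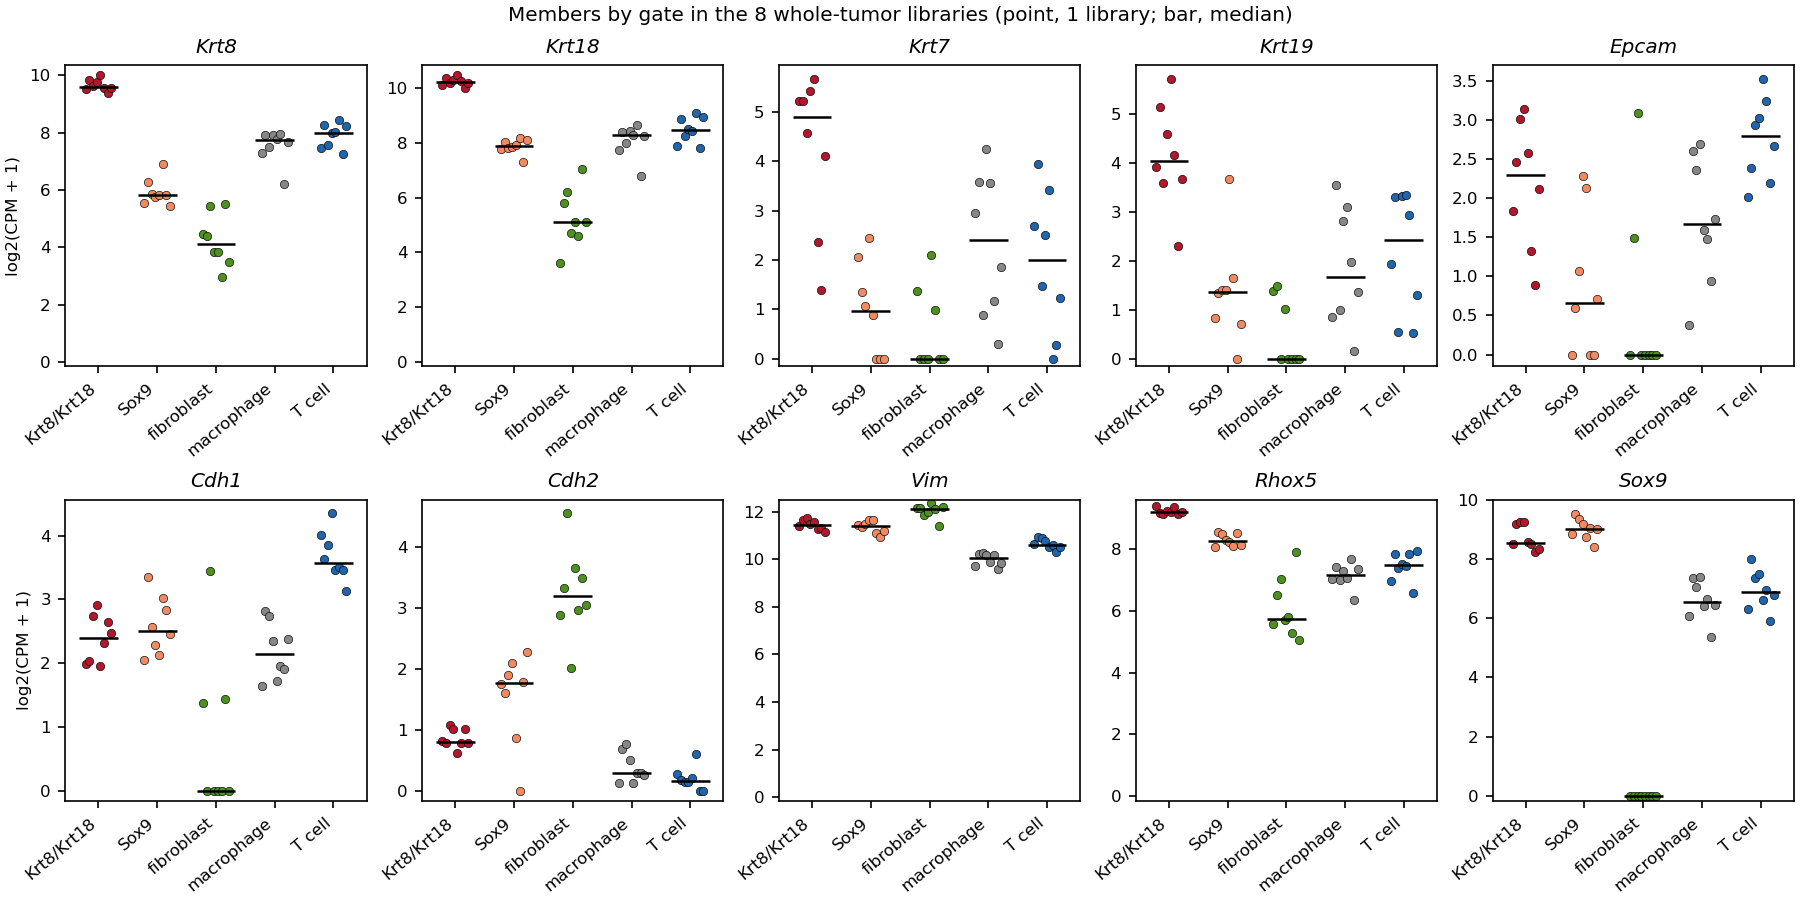
Each panel plots 1 of the 10 genes as log2(CPM + 1) in the Krt8/Krt18, Sox9, and fibroblast gates and in macrophage and T cell barcodes, with a point for each of the 8 whole-tumor libraries and a bar at the median (the y scale differs between panels). Krt7 and Krt19 reach 49.3 and 51.2 CPM in the Krt8/Krt18 gate and at most 4.40 and 11.7 CPM in the Sox9 gate, Vim is high in all gates, and Cdh2 is highest in the fibroblast gate.

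The Krt8/Krt18 gate was then compared with the fibroblast gate of the same libraries, to place the 7 genes that did not choose barcodes against barcodes chosen by collagen and stromal genes. That these were host cells was not shown, and 27.8% of them held Rhox5, against 15.2% of T cell barcodes. Genes were called at an adjusted p below 0.05 (edgeR quasi-likelihood test, library as a block) and a log2 fold change beyond 0.5 in size. Of 11036 genes tested, 5625 (51%) were called, 24.6% as higher and 26.3% as lower in the Krt8/Krt18 gate, so that a call by itself separates few genes. All 7 genes were called. Krt7, Krt19, Epcam, and Cdh1 had 4, 3, 4, and 6 UMIs in the fibroblast gate and could pass the count filter through the Krt8/Krt18 gate alone. Nothing is therefore read from how many were called, and the values of each gene are given below.

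In the fibroblast gate Krt7 was at 0, 0, and 3.31 CPM and Krt19 at 0, 0, and 1.81 CPM in the lowest, median, and highest library. The Krt8/Krt18 gate was higher by a log2 fold change of 5.14 (SE 0.41, adjusted p = 6.14e-10) for Krt7, with 16710 UMIs against 4. The pooled ratio of Krt7 was 35.9 with an exact 95% counting interval of 14.0 to 132. For Krt19 the log2 fold change was 5.28 (SE 0.44, adjusted p = 1.35e-09). With 3 UMIs of Krt19 in the fibroblast gate, the pooled ratio was 39.9 with an exact 95% counting interval of 13.7 to 194. The ranges of Krt7 overlapped between the gates, with 1.63 CPM in the lowest library of the Krt8/Krt18 gate, and those of Krt19 did not. Epcam rose by 2.51 (SE 0.65, adjusted p = 0.00222) on 4 UMIs in the fibroblast gate and Cdh1 by 2.01 (SE 0.60, adjusted p = 0.00651) on 6 UMIs. Their ranges overlapped, with a median of 0 CPM in the fibroblast gate but 7.46 CPM of Epcam and 9.95 CPM of Cdh1 in its library with PancVAX plus anti-PD-1, where both genes were higher than in the Krt8/Krt18 gate. Rhox5 rose by 3.09 (SE 0.24, adjusted p = 3.07e-10), and its lowest library in the Krt8/Krt18 gate was above the highest in the fibroblast gate.

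The 2 mesenchymal genes were lower in the Krt8/Krt18 gate, to unlike degrees. Cdh2 was at 3.05, 8.17, and 22.4 CPM in the fibroblast gate, above every library of the Krt8/Krt18 gate, and fell by 3.36 on the log2 scale (SE 0.35, adjusted p = 3.28e-08). Vim was at 2693, 4470, and 5343 CPM, and it fell by 0.55 (SE 0.10, adjusted p = 9.97e-05), close to the limit on size. Its call was lost with a fall of 0.49 without the isotype control library, with a fall of 0.42 when all genes were kept, and with a fall of 0.07 under the paper's cell limits.

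Against the Sox9 gate 2827 of the 11036 genes (25.6%) were called, 8.79% as higher and 16.8% as lower in the Krt8/Krt18 gate. Krt7, Krt19, and Epcam had 18, 28, and 15 UMIs in the Sox9 gate and could pass the count filter through the Krt8/Krt18 gate alone. Krt7 was at 0, 0.964, and 4.40 CPM in the Sox9 gate and the Krt8/Krt18 gate was higher by 4.38 on the log2 scale (SE 0.26, adjusted p = 5.61e-11). Krt19 was at 0, 1.59, and 11.7 CPM and was higher by 3.41 (SE 0.24, adjusted p = 5.82e-10). Epcam was higher by 2.08 (SE 0.42, adjusted p = 0.000422) and Rhox5 by 1.13 (SE 0.20, adjusted p = 0.000111). Krt7, Krt19, and Epcam were higher along with Krt8 and Krt18, the pair that split the gates, and nothing is read from how many were called. Cdh1 did not pass the test (log2 fold change -0.12, SE 0.30, adjusted p = 0.77), and Vim was higher by less than the limit on size (0.27, SE 0.10, adjusted p = 0.0356). Cdh2 fell by 1.22 (SE 0.37, adjusted p = 0.0106), but it was higher by 0.74 under the paper's cell limits, and the call was lost with stricter gates (a fall of 2.16, adjusted p = 0.0774). Epcam lost its call in the Percoll libraries (1.01, adjusted p = 0.0916).

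The Sox9 gate stood between the other gates for Rhox5, which was higher by 1.95 than in the fibroblast gate (SE 0.23, adjusted p = 8.61e-07), among 4209 called genes (38.1%, 17.2% as higher and 20.9% as lower). Cdh1 was higher by 2.13 (SE 0.65, adjusted p = 0.00988) and Vim and Cdh2 fell by 0.82 (SE 0.10, adjusted p = 1.79e-06) and 2.15 (SE 0.40, adjusted p = 0.000159). Vim lost its call with a fall of 0.44 under the paper's cell limits and Cdh2 with a fall of 1.63 under stricter gates (adjusted p = 0.0992). Krt7 (0.76, SE 0.80) and Epcam (0.42, SE 0.91) did not pass the test. Krt19 passed narrowly (1.87, SE 0.77, adjusted p = 0.0479), with 28 UMIs against 3, a pooled ratio of 4.03 and an exact 95% counting interval of 1.24 to 20.7. This call held in 3 of 14 alternatives. It turned direction in the Percoll libraries (-0.49). It was lost under DESeq2 (1.41), with all genes kept (1.98), under the paper's cell limits (0.85), under stricter gates (1.18), and without the library of PancVAX plus anti-PD-1 (1.78), PancVAX plus anti-CTLA-4 (2.25), both antibodies (0.83), anti-CTLA-4 (1.62), anti-PD-1 (1.90), or isotype control (1.83).

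**Figure D2:**
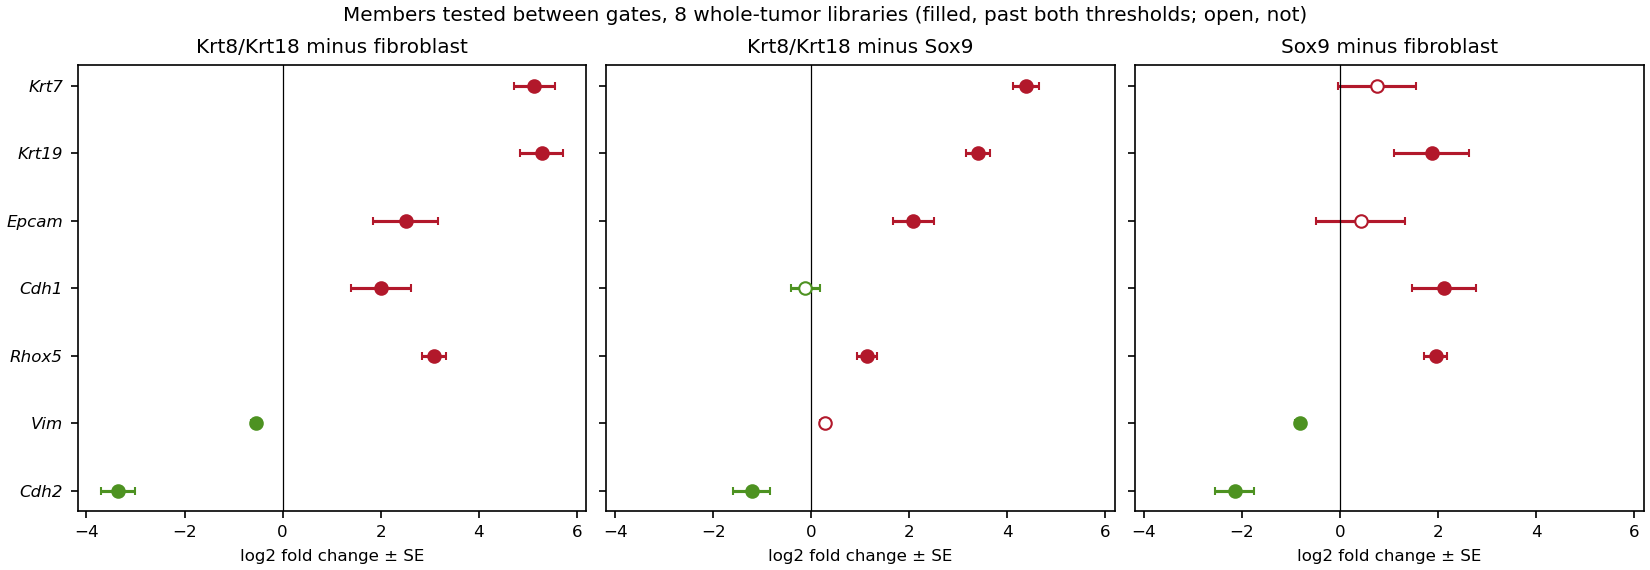
Log2 fold changes (x axis) of the 7 genes that did not choose barcodes, for the 3 pairs of gates over 8 whole-tumor libraries. Bars are ± SE, worked back from the edgeR F statistic, which for genes of few UMIs can be smaller than counting error. Points right of 0 are higher in the first gate named, and filled points passed both thresholds. Krt7 and Krt19 lie beyond 5 against the fibroblast gate, Rhox5 is right of 0 in all pairs, and Cdh2 is left of 0 in all 3.

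Other genes of the epithelial and mesenchymal programs were read in the same tests. Of 24 listed epithelial genes, 17 had too few counts to be tested between the gates. A mean of at least 10 CPM was reached by 5 of the 24 in the Krt8/Krt18 gate, 4 in the Sox9 gate, 1 in the fibroblast gate, 4 in T cells, 3 in macrophages, and 15 in basal keratinocytes. The 24 genes summed to a median of 365 CPM in the Krt8/Krt18 gate, 249.7 in the Sox9 gate, 58.5 in the fibroblast gate, and 276 in T cells. The 7 tested genes could pass the count filter through the Krt8/Krt18 gate alone, so that nothing is read from how many of them were called. The largest differences from the fibroblast gate were for Cldn7 (3.34, SE 0.29), a tight junction claudin, Lsr (2.86, SE 0.24), which recruits proteins to tricellular junctions, Elf3 (2.70, SE 0.38), an epithelial transcription factor, and Spint2 (2.45, SE 0.25), an inhibitor of membrane serine proteases. Against the Sox9 gate Cldn7 was higher by 1.03 (SE 0.15), Lsr by 0.90 (SE 0.15), and Spint2 by 0.67 (SE 0.21), whereas Pkp3 (0.43, SE 0.17) and Spint1 (-0.56, SE 0.26, adjusted p = 0.0794) were not called.

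All 24 listed mesenchymal genes were tested. In the Krt8/Krt18 gate 19 were lower than in the fibroblast gate and 2 higher (26.3% and 24.6% of all genes), with a median log2 fold change of -4.97 where that of all genes was 0.05. The fibroblast gate was chosen by collagen and stromal genes, and a listed gene could pass the count filter through it alone. Nothing is therefore read from these counts or this median. The transcription factors Twist1 and Prrx1 fell by 9.53 and 9.52, the collagen cross-linking enzyme gene Loxl2 by 9.49, and the adhesion molecule gene Ncam1 by 9.39 on the log2 scale. Twist1 was at 0.117 CPM at the median in the Krt8/Krt18 gate and 73.1 in the fibroblast gate. Other genes of the list, named after their values were seen, were found in both gates. Snai1, a repressor of Cdh1, was at 37.1, 47.7, and 61.4 CPM in the Krt8/Krt18 gate (log2 fold change -0.16, SE 0.13, adjusted p = 0.31), and the receptor kinase gene Axl at 193, 223, and 279 CPM (0.09, SE 0.09, adjusted p = 0.38). Zeb1 and Zeb2, which also repress Cdh1, had medians of 26.7 and 93.9 CPM and fell by 1.54 (SE 0.14) and 0.88 (SE 0.11) against the fibroblast gate. Fn1, the fibronectin gene, was at 1786, 2312, and 2884 CPM and fell by 0.85 (SE 0.10, adjusted p = 1.31e-07). The 2 genes that were higher are named after their values were seen. They were S100a4 (2.30, SE 0.13), a calcium-binding protein also called fibroblast-specific protein, and Foxc2 (1.82, SE 0.32), a forkhead transcription factor.

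Against the Sox9 gate 17 of the 24 mesenchymal genes were lower in the Krt8/Krt18 gate (16.8% of all genes) and S100a4 alone was higher (1.34, SE 0.12), with a median log2 fold change of -2.43. The Sox9 gate in turn had 16 lower and 2 higher than the fibroblast gate (20.9% and 17.2% of all genes). The count filter was shared by all gates, so that nothing is read from these counts either. The fibroblast markers summed above were in part those that formed the fibroblast gate, and between the Krt8/Krt18 and Sox9 gates their part in these differences was not tested.

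Genes of pancreatic ducts and progenitors were few. Cftr, Hnf4a, Onecut1, and Nkx6-1 were at 0 in the Krt8/Krt18 gate of all whole-tumor libraries. Pdx1, a transcription factor of the pancreas, was at 21.2, 23.2, and 26.5 CPM there and was higher than in the fibroblast gate (1.60, SE 0.29, adjusted p = 5.86e-05). Spp1, which encodes osteopontin, was at 1378, 1459, and 2420 CPM (1.61, SE 0.22, adjusted p = 2.23e-06), and Foxa2 differed by 0.98 (SE 0.30, adjusted p = 0.00654). These were 3 of the 4 genes of 12 listed that had enough counts to be tested, and Gata6, at no more than 0.0191 CPM in any library of the Krt8/Krt18 gate, was called lower. Of all genes 24.6% were called higher and 26.3% lower. A gene could pass the count filter through 1 gate alone, so that nothing is read from how many of these were called. Of 14 listed cartilage and tendon genes, where Sox9 is a known regulator, 9 had enough counts to be tested, which a gene could reach through the fibroblast gate alone, so that nothing is read from how many were called. The Krt8/Krt18 gate was higher than the fibroblast gate for Scx (1.97, SE 0.28), a tendon transcription factor, named after its value was seen. Among lower genes were Cilp (fell by 9.09), Tnmd (fell by 8.19), and Fmod (fell by 6.51). Of 5 filament and junction genes tested, Ctnna1 (0.52, SE 0.08) and Jup (0.50, SE 0.17), which link cadherins to the cytoskeleton, were just past the limit on size, and Ctnnb1 was not called (-0.12, SE 0.08).

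The Sox9 gate was mixed by Rhox5. Of its 1430 whole-tumor barcodes 850 (59.4%) held Rhox5, 51.4% to 73.1% by library, against 63.0% in the Percoll libraries. The 580 barcodes without Rhox5 were shallower, with a median of 3799.5 UMIs against 8472.5. Col1a1, the fibrillar collagen gene of fibroblasts, had a median over libraries of 2909 CPM without Rhox5 and 205 with it, and the values without Rhox5 were higher in 8 of 8 libraries. Sparc, a matrix protein gene, was at 4709 against 1044 CPM and Acta2, smooth muscle actin, at 562 against 37.8 CPM, also higher without Rhox5 in 8 of 8. Among the 10 genes, Vim was higher without Rhox5 in 8 of 8 libraries (2935 against 2425 CPM), and Krt18 was higher with Rhox5 in 7 of 8 (279.5 against 175 CPM). The values of this gate are thus averages over barcodes that differed in their fibroblast genes. The split used the measured Rhox5 and was chosen after the values were seen, so that no test is given.

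The barcodes that carried Krt7 and Krt19 were described further. They were taken as barcodes of the Krt8/Krt18 gate with at least 3 UMIs of Krt7 plus Krt19 and set against those with none, a limit chosen after the values were seen, so that the values are a description. They were 2255 of 28066 barcodes (8.03%) in the whole-tumor libraries and 2541 of 31508 (8.06%) in the Percoll libraries. The share was 4.78% with isotype control, 1.04% with anti-PD-1, 3.81% with anti-CTLA-4, and 16.9% with both antibodies. With PancVAX it was 8.91% alone, 2.87% with anti-PD-1, 12.5% with anti-CTLA-4, and 11.1% with both. The Percoll libraries of the same treatments gave 5.97%, 1.65%, 4.03%, 16.6%, 8.47%, 1.26%, 13.3%, and 10.8% in this order. The pools kept this order between preparations except for the lowest ones, anti-PD-1 and PancVAX plus anti-PD-1, which traded places. In the whole-tumor libraries the range of the pools with PancVAX lay within that of the pools without it. Both preparations were made from tumors of the same treatment, so that the second is not an independent set of mice. Each share is of 1 pool, with exact binomial intervals as wide as 15.7% to 18.2% for the highest, which cover counting error only.

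Krt7 and Krt19 were found in the same barcodes to a degree that differed widely between pools. Among 8777 barcodes of 15000 to 25000 UMIs, Krt7 was seen in 54.9% of those with Krt19 and in 6.17% of those without, and its share was higher with Krt19 in 8 of 8 libraries. It was seen in 76.0% of the barcodes with Krt19 with both antibodies, 75.0% with all 3 agents, and 57.7% with PancVAX plus anti-CTLA-4. In the other pools it was seen in 35.4% with isotype control, 34.1% with PancVAX plus anti-PD-1, 12.2% with PancVAX, 8.70% with anti-PD-1 (2 of 23 barcodes), and 5.88% with anti-CTLA-4 (5 of 85). The first 3 pools, which also held the most barcodes with Krt19, thus weighed most in the pooled share. Epcam was seen in 14.1% of barcodes with Krt7 and in 2.00% without, whereas Cdh1 was seen in 8.89% and 6.76% and Cdh2 in 2.38% and 2.09%. The share of Epcam was higher with Krt7 in 8 of 8 libraries and that of Cdh1 in 6 of 8, and Cdh2 was seen in too few barcodes to order them.

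Pooled over the 8 whole-tumor libraries, Epcam was at 24.9 CPM in barcodes with at least 3 keratin UMIs and 1.46 CPM in those with none, a ratio of 17.1, and was higher in 8 of 8 libraries. Krt8 was at 1694 against 704 CPM and Krt18 at 2115 against 1082 CPM, both higher in 8 of 8. Vim was also higher in 8 of 8 (3536 against 2658 CPM), as was Rhox5 (752 against 586 CPM). Vimentin RNA was thus not reduced where the epithelial genes were high. Sox9 was at 417 against 434 CPM and lower in 6 of 8 libraries, Cdh1 was at 5.75 against 4.15 CPM and higher in 5 of 8, and Cdh2 was at 0.698 against 0.822 CPM on 46 UMIs. The keratin-rich barcodes were deeper, with a median of 24799 UMIs against 18763, and within 15000 to 25000 UMIs the ratio of Epcam was 22.9.

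Of 24 epithelial list genes 16 had at least 100 UMIs in the gate, a number that a gene could reach through the keratin-rich barcodes, so that nothing is read from how many were higher. Cldn7 was at 83.8 against 22.7 CPM, Lsr at 97.0 against 46.0 CPM, the tight junction gene Ocln at 5.77 against 0.273 CPM, and the desmosome gene Dsp at 5.18 against 0.471 CPM. Esrp1, a splicing factor of epithelial cells, was at 2.28 against 0.104 CPM. The mesenchymal list was divided, with 8 genes higher and 12 lower of 20, where 42.9% of all 13910 genes with at least 100 UMIs were higher. Within 15000 to 25000 UMIs it had 6 higher and 10 lower of 16, where 46.3% of all 12145 such genes were higher. In every library with at least 10 barcodes of each kind, 3 of these 16 were higher and 3 lower. Of all genes in this window, 2.63% were higher and 4.56% lower in all 8 libraries. That share was taken over all 8 libraries whatever their number of barcodes, so that the counts are not matched. Without the window, 1 of the 20 was higher and 5 were lower in 8 of 8 libraries, against 3.70% and 8.92% of all genes. Zeb1 (13.0 against 28.1 CPM), Zeb2 (69.0 against 94.4), Sparc (421 against 686), and Axl (177 against 232) were lower in 8 of 8 libraries. Cd44, a hyaluronan receptor gene (127 against 98.6 CPM), was higher in 8 of 8. The matrix genes Prelp (97.3 against 204 CPM) and Ogn (48.4 against 125) were lower as well, in 8 of 8 libraries, as was the fibroblast marker Lum (4.96 against 37.3). Krt14, a basal keratin, was at 81.4 against 0.720 CPM, in a gate from which barcodes with both Krt5 and Krt14 had been set aside, a ratio of 113 that was 56.4 in the Percoll libraries. Spp1 was at 3377 against 1423 CPM. All of these genes were named after their values were seen.

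**Figure D3:**
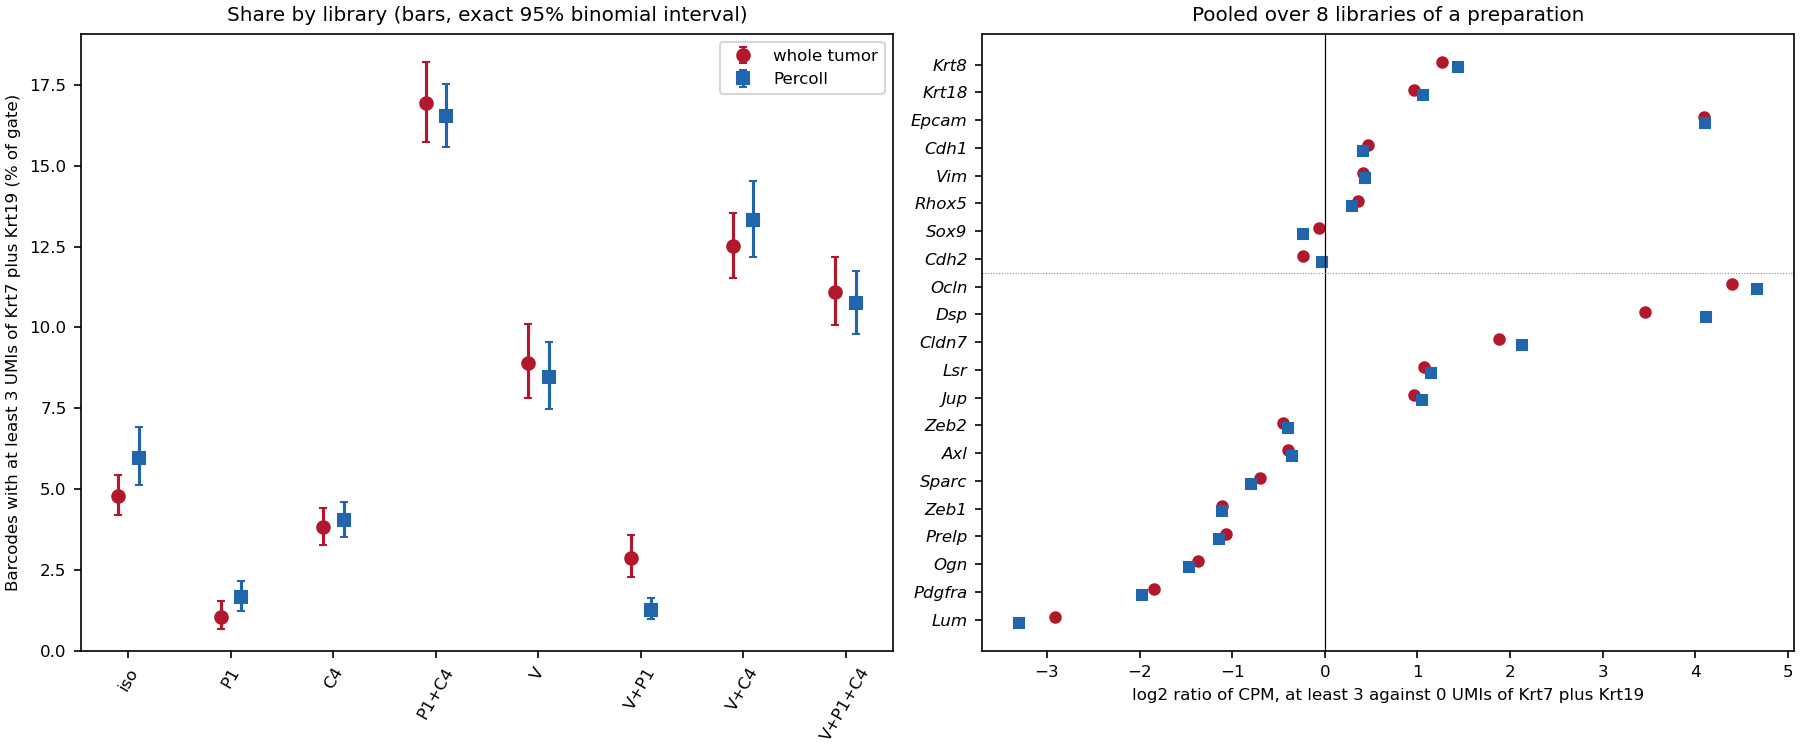
Left, share of barcodes in the Krt8/Krt18 gate with at least 3 UMIs of Krt7 plus Krt19 by treatment (y axis, percent, exact 95% binomial interval) in whole-tumor and Percoll libraries. Right, log2 ratio of CPM between these barcodes and those with none, pooled over 8 libraries per preparation, with a dotted line between the followed genes and list genes. The shares span 1.04% to 16.9% in whole-tumor libraries, and Epcam (ratio 17.1) and Zeb1 (13.0 against 28.1 CPM) lie on opposite sides of 0.

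Whether a treatment moved these genes was asked in the Krt8/Krt18 gate over 8 whole-tumor pools, 4 with an agent and 4 without, with the other agents as covariates. For PancVAX 4 of 15023 genes (0.0266%) were called by edgeR, with 2510 at an unadjusted p below 0.05 and 35 called by DESeq2. For anti-PD-1 (0%) and anti-CTLA-4 (0%) none was called by edgeR, with 1457 and 1767 genes at an unadjusted p below 0.05, and DESeq2 called 58 and 104. None of the 8 tested genes was among those called by edgeR for any agent. The 4 called with PancVAX, named after their values were seen, were the chemokine gene Ccl5 (0.94, SE 0.08), the chemerin-binding receptor gene Ccrl2 (0.80, SE 0.07), Chac1 (-1.03, SE 0.10), a stress-response enzyme gene, and Tff2, a trefoil peptide gene at 0 to 2.07 CPM. With 1 pool left out, which also leaves fewer degrees of freedom, Ccl5 stayed between 0.88 and 1.02, Ccrl2 between 0.75 and 0.87, and Chac1 between -1.14 and -0.94. Their calls mostly did not hold, with Ccl5 and Ccrl2 called in 2 of 8 such fits and Chac1 and Tff2 in 1 of 8. Ccl5 is also a T cell gene, at 5049 to 6828 CPM in T cell barcodes with PancVAX and 1199 to 2299 CPM without it. In the Krt8/Krt18 gate it was at 20.3 to 33.1 CPM with PancVAX and 8.98 to 17.6 CPM without it. T cells were 12.5% to 20.4% of barcodes with PancVAX and 7.67% to 10.4% without it, and 5 T cell markers summed to 1.98 to 7.26 CPM and 3.15 to 4.94 CPM in the Krt8/Krt18 gate. The part of T cell RNA in the difference of Ccl5 was not tested. There were 11 called genes without the pool of PancVAX alone, 0 or 1 without any other pool, and 0 in the Percoll libraries. Ccl5 in the Krt8/Krt18 gate of the Percoll libraries was at 15.7 to 96.2 CPM with PancVAX and 3.26 to 11.1 CPM without it. The highest value was with PancVAX plus anti-PD-1, where the T cell markers summed to 21.4 CPM in this gate.

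Sox9 in the Krt8/Krt18 gate was at 359 CPM with PancVAX, 598 with PancVAX plus anti-PD-1, 598 with PancVAX plus anti-CTLA-4, and 574 with all 3 agents. Without PancVAX it was at 318 with isotype control, 303 with anti-PD-1, 359 with anti-CTLA-4, and 377 with both antibodies. The 3 pools with PancVAX and an antibody were above the other 5, and PancVAX alone lay among the pools without it. The log2 fold change with PancVAX was 0.57 (SE 0.12, adjusted p = 0.17), which was not called by edgeR and was by DESeq2 (0.57, adjusted p = 5.03e-05). In the Percoll libraries the same 3 treatments gave 841 to 910.5 CPM and the other 5 gave 492 to 529.9 CPM. This grouping was seen in the values and was not tested. With anti-CTLA-4 the log2 fold change of Sox9 was 0.32 (SE 0.12, adjusted p = 0.37), and with anti-PD-1 it was 0.15 (SE 0.12, adjusted p = 0.70).

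Krt7 with PancVAX gave a log2 fold change of 1.03 (SE 0.81, adjusted p = 0.55). Its 8 values were 36.2 CPM with PancVAX, 22.8 with anti-PD-1 added, 41.8 with anti-CTLA-4 added, and 36.3 with both added, against 16.2 with isotype control, 1.63 with anti-PD-1, 4.17 with anti-CTLA-4, and 49.3 with both antibodies. The 4 pools without PancVAX spanned the values of the 4 with it. Krt19 with anti-CTLA-4 gave 1.60 (SE 0.46, adjusted p = 0.30). The pools with this antibody were at 17.0, 23.2, 34.4, and 51.2 CPM and those without it at 3.97, 11.0, 11.8, and 14.2 CPM. How many of all genes separate these pools was not counted, and the test over all genes was not passed. Epcam with PancVAX gave 0.96 (SE 0.52, adjusted p = 0.39).

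Vim gave log2 fold changes of 0.18 with PancVAX (SE 0.07, adjusted p = 0.25), 0.22 with anti-PD-1 (SE 0.07, adjusted p = 0.42), and 0.12 with anti-CTLA-4 (SE 0.07, adjusted p = 0.51). It was at 2274 CPM with isotype control and at 2468 to 3410 CPM with the other treatments. Rhox5 gave -0.05 with PancVAX (SE 0.07, adjusted p = 0.74) and -0.15 with anti-PD-1 (SE 0.07, adjusted p = 0.53). Cdh1 and Cdh2 gave 0.09 (SE 0.29) and 0.22 (SE 0.22) with PancVAX. In the Sox9 gate, where 1 of 10233 genes (0.00977%) was called with PancVAX, Vim gave 0.14 (SE 0.15, adjusted p = 0.76) and Rhox5 -0.01 (SE 0.12). In the fibroblast gate, where 1 of 7677 (0.013%) was called, Vim gave -0.06 (SE 0.20) and Rhox5 -0.02 (SE 0.38). The called genes, named after their values were seen, were the mast cell protease gene Mcpt1 in the Sox9 gate and the serpin gene Serpinb2 in the fibroblast gate. With 1 pool left out, Mcpt1 was called in 6 of 8 fits and Serpinb2 in 0 of the 6 fits that tested it. Among all listed genes of the epithelial, mesenchymal, pancreatic, cartilage, and filament lists, Tff2 with PancVAX was the only call by edgeR for any agent in the Krt8/Krt18 gate.

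**Figure D4:**
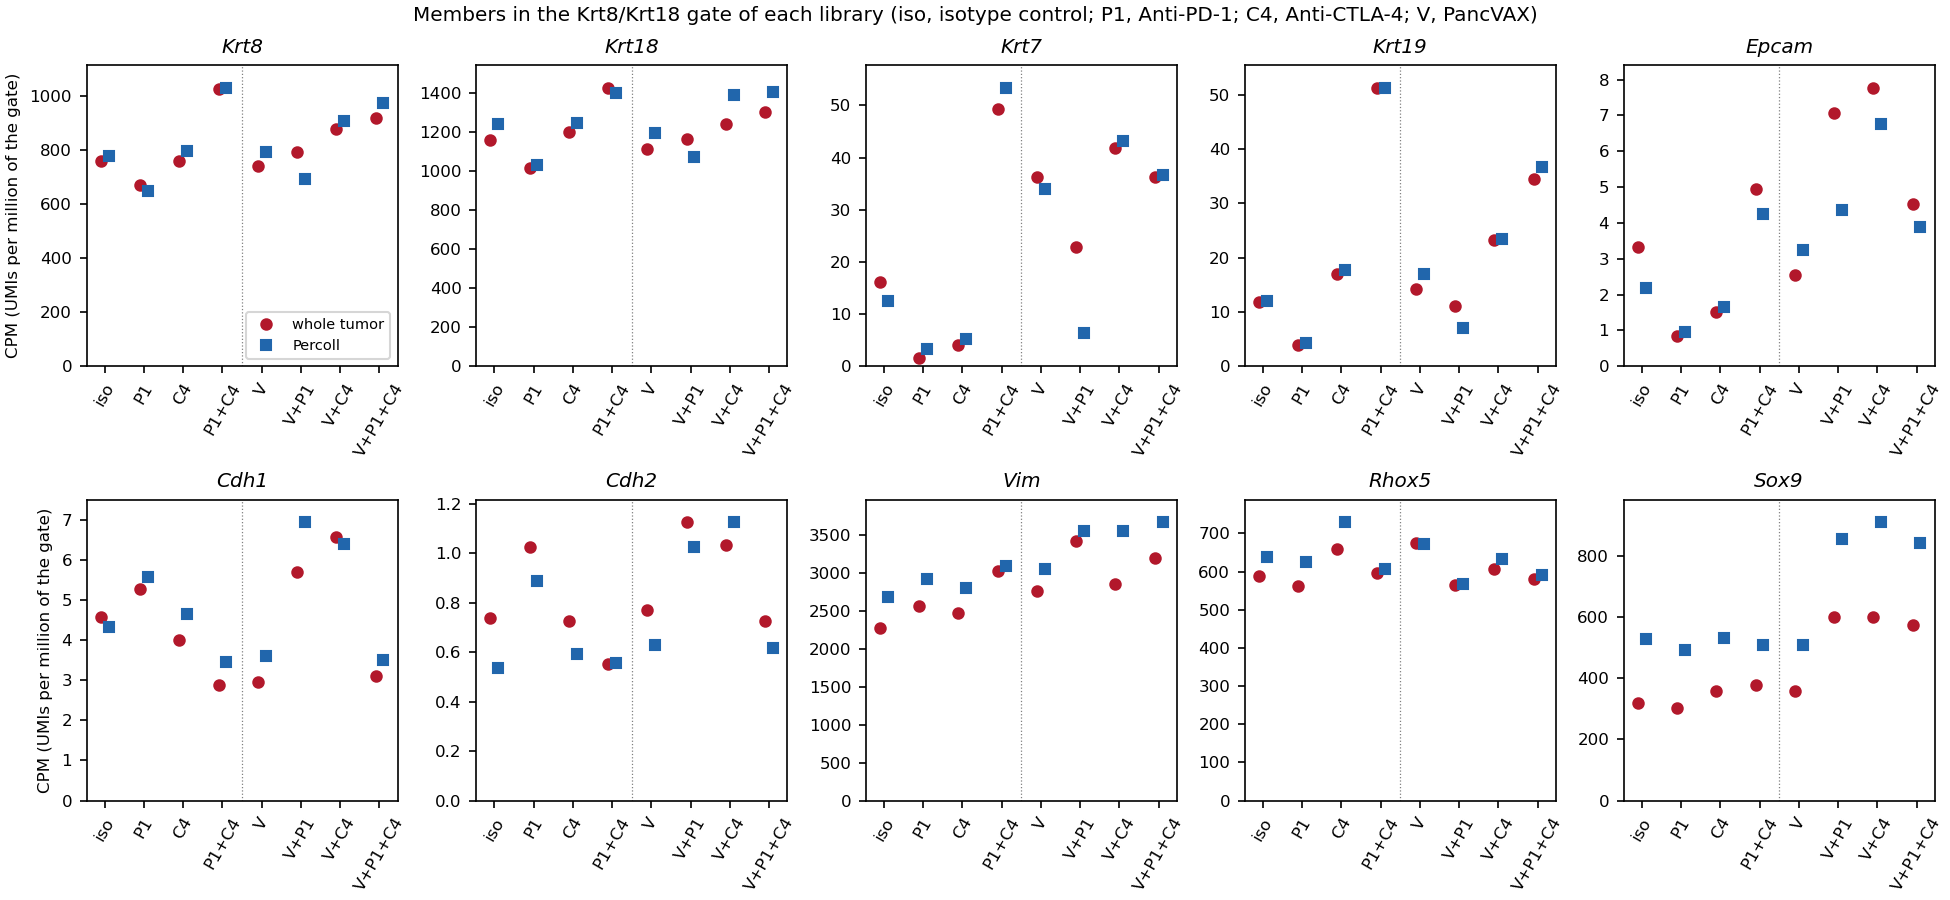
CPM (y axis from 0) of each gene in the Krt8/Krt18 gate of the 16 RNA libraries. The x axis orders treatments as isotype control, anti-PD-1 (P1), anti-CTLA-4 (C4), and both, then, right of the dotted line, the same 4 with PancVAX (V), with circles for whole-tumor and squares for Percoll libraries. Sox9 squares lie above the circles in all 8 treatments, and Krt7 and Krt19 are highest with both antibodies (49.3 and 51.2 CPM in whole tumor).

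Sox9 differed between the preparations. In the Krt8/Krt18 gate it was at 492, 529, and 910.5 CPM in the lowest, median, and highest Percoll library against 303, 368, and 598 CPM in the whole-tumor libraries, and it was higher in the Percoll library of all 8 treatments. The log2 fold change was 0.55 (SE 0.03, adjusted p = 2.77e-07, treatment as a block), among 1008 of 15571 genes called (6.47%, 3.9% as higher and 2.57% as lower). Sox9 was the only one of 8 tested genes that passed both limits. Vim was higher by 0.14 (SE 0.03, adjusted p = 0.0032), below the limit on size, and Krt7 (-0.17, SE 0.19), Krt19 (-0.02, SE 0.07), Epcam (-0.22, SE 0.10), Cdh1 (0.12, SE 0.05), Cdh2 (-0.21, SE 0.10), and Rhox5 (0.04, SE 0.02) did not pass the test. Without the treatment PancVAX plus anti-PD-1, whose Percoll library stood apart in depth, Sox9 gave 0.56.

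Other genes that were higher in the Percoll libraries, named after their values were seen, were the stress-induced genes Gadd45g (1.36, SE 0.05) and Ppp1r15a (0.73, SE 0.03), the growth regulator gene Myc (0.78, SE 0.04), and the heat shock cochaperone gene Dnajb1 (0.57, SE 0.03). Their part in the difference of Sox9 was not tested. Of the epithelial list 2 of 20 tested genes were higher in the Percoll libraries (3.9% of all genes), the transcription factor genes Ovol1 (1.26, SE 0.20) and Elf3 (0.55, SE 0.04), and of the mesenchymal list 1 of 23 was lower (2.57% of all genes), the cadherin gene Cdh11 (fell by 0.77, SE 0.29), both counts too small to set the lists apart. The gradient and the sequencing batch cannot be told apart in this comparison.

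The Krt8/Krt18 gate held 38.0% to 57.9% of the barcodes within the cell limits in the whole-tumor libraries. With PancVAX the share was 43.4% ± 4.64 (SD, n = 4) and without it 51.2% ± 7.01 (SD, n = 4). The difference of -7.77 percentage points did not pass an exact two-sided permutation test over 70 splits (p = 0.114, where the smallest possible p is 0.0286). This test did not match pools by antibody. With PancVAX and without it, the shares were 42.5% and 52.4% with isotype control and 38.0% and 41.4% with anti-PD-1. They were 44.0% and 57.9% with anti-CTLA-4 and 49.3% and 53.0% with both antibodies. Each matched share was also lower with PancVAX in the Percoll libraries, which was not tested. In the Percoll libraries the gate held 43.1% to 59.5% of barcodes, more than in the whole-tumor library of each treatment. With PancVAX plus both antibodies the shares were close, at 49.4% in the Percoll and 49.3% in the whole-tumor library. The difference between preparations was not tested, and preparation was also the sequencing batch. A share of barcodes depends on how many of the other cells were recovered, and it is not a number of tumor cells.

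For each gene the 3 genes with the most similar pattern were found over 50 sums of 7 gates and 8 whole-tumor libraries, among 8764 genes, by Pearson's r of log2(CPM + 1). These points share libraries and differ in depth, and the gates were formed with Krt8, Krt18, Sox9, Krt5, and Krt14 among others, so that r is a description and values that involve these genes are in part fixed by the gates. Krt8 and Krt18 had an r of 0.93 with each other, and Hmga1, a chromatin protein gene, was near both (0.89 and 0.90). Krt7 was nearest to Krt14 (0.68) and Krt19 to Cyc1 (0.75), with lower values than any other of the 10 genes. Epcam was nearest to Perp (0.82), Krt14 (0.78), and Gata3 (0.77) and Cdh1 to Gata3 (0.89), Perp (0.86), and Pkp3 (0.82). Perp and Pkp3 belong to desmosomes, and Gata3 is a transcription factor of skin and T cells. Cdh2 was nearest to C1qtnf3 and Ssr3 (both 0.87), Vim to the cytoskeletal genes Sptbn1, Pdlim7, and Tpm4 (all 0.95), Rhox5 to Wfdc2 (0.95) and Lncenc1 (0.94), and Sox9 to Wbp2 (0.90) and Tgif1 (0.87).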

How the data were processed

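The deposited files hold raw UMI counts per gene and barcode that the authors made with Cell Ranger 4.0.0 from 10x 5′ libraries. The processing notes also name Seurat and mm10, and the number that ends a barcode was taken as its library from the sample descriptions. The 8 T cell receptor libraries were used only to count contigs in the gates. The counts were read and tabulated with pandas 2.3.3 and numpy 2.4.6 under Python 3.11.15. Exact intervals and expected shares used scipy 1.17.1, and figures were drawn with matplotlib 3.10.9. Barcodes were gated as the Results describe, without a doublet caller, clusters, or correction for free RNA. The paper's upper limits of 3000 genes and 10000 UMIs and its hemoglobin limit, used in its T cell analysis, would have removed most of the Krt8/Krt18 gate (9775 of 59574 barcodes left), and they were used as an alternative.

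UMIs were summed by library and gate where a gate had at least 10 barcodes. The sums were tested in R 4.3.3 with the quasi-likelihood test of edgeR 4.0.16 (TMM, filterByExpr, two-sided, Benjamini-Hochberg over all genes tested) in place of the paper's test over cells, since cells of 1 pool are not replicates. Genes that chose barcodes were not tested between gates. CPM are UMIs per 1000000 UMIs of the gate. The SE is the size of the log2 fold change divided by the square root of the edgeR F statistic. For genes of few UMIs it can be smaller than counting error. Shares at 2000 UMIs are hypergeometric expectations per barcode. Ratios of few UMIs have exact counting intervals and shares exact binomial ones, both at 95% and covering counting error only. The fits were tested on simulated data. Alternatives tried were the paper's limits, DESeq2 1.42.0, keeping all genes with counts, 1 Ptprc UMI allowed, stricter gates (at least 4 UMIs of Krt8 plus Krt18, 2 of Sox9, or 6 of the fibroblast genes), the other preparation or both summed, no treatment block, and leaving out each library. Genes and their chromosome positions come from RefSeq (GRCm38.p6).

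The 10 genes, the lists, and the tests were chosen with earlier results of these data known. Named genes were the 10, up to 4 of each list past the threshold by size of change or otherwise by CPM, and the 3 most similar genes, and other genes were named after their values were seen. The window of 15000 to 25000 UMIs and the Percoll values of the keratin-rich barcodes were added after seeing the data.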

Additional observations from a re-analysis of the deposited data

Results flagged for a closer look

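In 52 groups of 4 libraries, the value of each gene in a gate was compared for a library apart from the other 3 (gap over range above Dixon's 95% critical value, which chance alone exceeds in about 1 of 20 groups), and 4 groups had one. Sox9 in the Krt8/Krt18 gate was at 359 CPM in the whole-tumor library with PancVAX alone, below 574 to 598 CPM in the 3 libraries with PancVAX and an antibody. In the Sox9 gate of the Percoll libraries with PancVAX, Krt8 was at 113 CPM and Vim at 3138 CPM with PancVAX plus anti-PD-1, the library with 915 barcodes in this gate, and Krt7 was at 15.0 CPM with PancVAX alone.

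T cell receptor contigs, which no comparison used, were found for 126 of 31508 barcodes in the Krt8/Krt18 gate of the Percoll libraries (0.400%), against 86.2% of T cell barcodes and 1.28% of 2024 barcodes in the Sox9 gate. These barcodes had no Ptprc UMI, and no doublet caller was run on them.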

How the results depend on the processing

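For the agents no paired analysis was run, and replicate numbers pair nothing across treatments. Pools could be matched by the other agents, which the fits held as covariates and the permutation test of shares did not. Gates were paired by library and preparations by treatment. Of the values of single genes under alternatives, 461 were the same, 17 lost the call, 1 gained it, and 7 turned direction. The same meant the same direction and call. The ratios between keratin-rich barcodes and those with none have no call, and for them it meant the same direction within a fixed limit. Beyond that limit 1 ratio moved, Krt14 (113, and 56.4 in the Percoll libraries). The 7 turned values follow, with their range leaving out 1 library where that turned them. Between the Krt8/Krt18 and Sox9 gates Cdh1 was 0.13 in the Percoll libraries and 0.073 without all 3 agents (range -0.32 to 0.073), and Cdh2 was 0.74 under the paper's limits. Between the Sox9 and fibroblast gates Krt7 was -0.18 without PancVAX plus anti-CTLA-4 (-0.18 to 1.60), Krt19 was -0.49 in the Percoll libraries, and Epcam was -0.10 without both antibodies (-0.10 to 0.83). Rhox5 with PancVAX was 0.0039 without PancVAX plus anti-CTLA-4 (-0.13 to 0.0039). The causes were not tested.

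Counts of genes called for an agent were unstable. With PancVAX in the Krt8/Krt18 gate (4) they were 35 by DESeq2, 1 under the paper's limits, 0 in the Percoll libraries, 0 in summed preparations, and 0 to 11 leaving out 1 library, with 11 without PancVAX alone and 0 or 1 without any other. For anti-PD-1 (0) they were 58 by DESeq2, 9 without the count filter, 1 under the paper's limits, and 0 leaving out any library. For anti-CTLA-4 (0) they were 104, 22, and 1 under these settings, 2 with stricter gates, and 0 to 8 leaving out 1 library (8 without PancVAX, 4 without anti-CTLA-4 or isotype control, 3 without PancVAX plus anti-CTLA-4, 1 without all 3 agents). With PancVAX in the Sox9 gate (1) they were 9 by DESeq2, 46 without the filter, 5 under the paper's limits, 3 with stricter gates, 0 in Percoll, 0 summed, and 0 to 5 leaving out 1 library (0 without PancVAX alone or isotype control, 3 without both antibodies, 5 without PancVAX plus anti-CTLA-4 or all 3 agents). In the fibroblast gate (1) they were 0, 27, and 0 under the first 3, 0 with 1 Ptprc UMI allowed, 3 in Percoll, 0 summed, and 0 to 1 leaving out 1 library (1 without PancVAX alone only).

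Under the paper's limits the gate comparisons called 2635 (Krt8/Krt18 and fibroblast), 983 (Krt8/Krt18 and Sox9), and 1741 genes (Sox9 and fibroblast), with fewer and shallower barcodes, and leaving out 1 library gave 5311 to 5663, 2601 to 2925, and 3889 to 4375. Percoll against whole tumor gave 234 under the paper's limits, 625 with no treatment block, and 819 to 1153 leaving out 1 treatment. The share of the Krt8/Krt18 gate had no exact permutation p below 0.05 under any alternative, with differences of -11.05 to -5.52 percentage points leaving out 1 library, -4.71 under the paper's limits, and -3.65 as a share of Ptprc-negative barcodes.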
